A study of Mus musculus with 13 samples.

Results

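Fibroblasts that are driven towards pluripotency first express the introduced factors and divide, and later pass through a stage, often called maturation, at which pluripotency genes of their own switch on. The comparison described here covers the entry into that stage: 6C-secondary cells at days 8 and 11 of doxycycline (Dox) against the same cells at days 2 and 5. The members were 4 of the 13 arrays of the series, picked by day alone, with 2 arrays in each group and 1 array per day.

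The study followed mouse embryonic fibroblasts (MEFs) to induced pluripotent stem (iPS) cells with a Dox-inducible promoter, and its design text names a polynomial smoothing of the 6C samples and phases set by changes over 2-fold. All 4 arrays held RNA of 6C-secondary MEFs under Dox at 1.5 µg per ml in mouse embryonic stem cell medium, split as they grew. In systems of this kind, secondary fibroblasts come from embryos made with a primary iPS clone, so the cells of a line share the same inserted factors and stand for 1 clone. The other arrays were of 6C-secondary MEFs without Dox (day 0) and at days 16 and 21 of Dox, of 6C-secondary and 6C-primary iPS cells called Dox independent, of parental MEFs without Dox, and of 1B-secondary MEFs without Dox, at day 5 of Dox and after 5 further days without it. The agent label of both iPS arrays nevertheless gives Dox at 1.5 µg per ml, so whether these cells were free of Dox is not settled here. Fibroblast genes were strong on the early arrays: Col1a1, the main chain of type I collagen, stood at 13.76 on day 2 and 13.49 on day 5, and the surface marker Thy1 at 11.22 and 11.06. All levels are deposited log2 values of the RMA procedure, in which 1 unit is 2-fold, and a level of a gene is compared only with the same gene on other arrays.

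The days within a group stood in for replicates, so the spread in each test mixed array error with change between days. The groups of untreated and of iPS arrays in the fit also added differences between cell sources. From the array names, days 2, 5 and 11 were processed in 1 run and day 8 in another. The names of the 6C day 8 and day 0 arrays give other days than their labels, and the labels were followed. Array medians lay between 6.34 and 6.67 over the series. In RNA of a whole culture, more cells of a type and more RNA of a gene per cell cannot be told apart.

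In epithelial cells, neighbours are sealed to each other by tight junctions of claudins and occludin and held by E-cadherin and desmosomes, whereas fibroblasts lie singly in a matrix of collagens that they secrete. The passage from the second state to the first is a known early event of reprogramming. The pluripotency network, led by Oct4, Sox2 and Nanog, is known to be assembled in steps, with some of its genes becoming active well before others.

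Of 23332 transcript clusters, 14 (0.0600%) were called higher and 4 (0.0171%) lower on days 8 and 11 by limma. The threshold was an adjusted p under 0.05 (Benjamini-Hochberg, over all clusters) with a difference of at least 1 log2 unit. The fit was made on all 13 arrays in 7 groups. Groups with more than 1 array gave the spread. They were untreated fibroblasts (3 arrays) and, with 2 each, iPS cells and 6C days 2 and 5, 8 and 11, and 16 and 21. The untreated group pooled parental, 6C and 1B fibroblasts, and the iPS group secondary and primary cells. The 1B arrays at day 5 and after withdrawal, each alone in its group, added no spread. The unadjusted p lay under 0.05 for 2315 clusters, and the lowest adjusted p was 0.0190. These calls rested on single arrays: without day 5 the fit called 118 higher and 25 lower, without day 2 it called 1 and 0, without day 8 it called 2 and 0, and without day 11 it called 1 and 0. Without 1 of the untreated arrays it called 0 higher (1B at day 0), 5 (6C at day 0) or 2 (parental), with 0 lower in each. It also called fewer than 14 and 4 without any 1 of the day 16, day 21 and iPS arrays. The 1B arrays at day 5 and after withdrawal were not left out. With the run as a block, limma called 0 clusters (2508 clusters at an unadjusted p under 0.05), and with only the 4 arrays in the fit it called 0 (2445).

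A second description needed no estimate of the spread. A cluster is said below to have separated upward when both later arrays lay above both early arrays and the means were at least 2-fold apart, and downward in the mirrored case. Of all clusters 801 (3.43%) separated upward and 1471 (6.30%) downward. Upward separations made up 35.3% of the total, and 45.8% with quantile normalization, 42.6% with each array centred on its median and 45.3% among clusters with a mean of at least 6. The median difference over all clusters was -0.06. Genes with a symbol were more frequent among the upward separations: 75.8% of them had exactly 1 symbol, against 37.3% of the downward ones and 64.3% of all clusters. Of the downward ones 58.5% had a mean under 6, against 37.0% of the upward ones and 43.7% of all clusters. Leaving out an array makes the criterion easier to meet; the counts were then 1054 and 1517 without day 2, 1415 and 2652 without day 5, 1317 and 1669 without day 8, and 1011 and 2309 without day 11.

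Of the 14 clusters called higher, 10 carried 1 gene symbol, and 9 of these are described. Elf5, an ETS transcription factor known from trophoblast stem cells and from mammary and other epithelia, stood at 5.59 and 6.18 on days 2 and 5 and at 9.63 and 11.05 on days 8 and 11. It rose by 4.45 log2 units (SE 0.43, 2 against 2 arrays, limma adjusted p = 0.0190). Both later arrays were far above both early ones. Without day 8 the call of Elf5 was the 1 of the 9 that held (limma adjusted p = 0.0120). None of the 9 held without day 2 (lowest limma adjusted p = 0.157), without day 11 (0.0676) or with the run as a block (0.279), and all 9 held without day 5. Elf5 was at 9.55 and 9.53 on days 16 and 21 and back at 5.73 and 5.64 in secondary and primary iPS cells. Cldn6, a claudin of tight junctions, was at 3.65 and 4.73 early and at 7.51 and 8.88 later, a rise of 4.01 (SE 0.53, limma adjusted p = 0.0489). Slc2a3, which encodes the glucose transporter GLUT3, was at 8.94 and 10.12 and then at 12.70 and 13.22. It rose by 3.43 (SE 0.38, limma adjusted p = 0.0301) and stayed between 13.11 and 13.30 on every later array of the line. Prss8, a membrane-anchored serine protease of epithelia, was flat at 5.55 and 5.60 early and stood at 8.35 and 8.87 later, a rise of 3.04 (SE 0.32, limma adjusted p = 0.0301).

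The other named calls were of smaller size or were short-lived. Aox3, an aldehyde oxidase, rose by 2.86 (SE 0.37), from 4.84 and 5.45 to 7.76 and 8.26, and was at 6.22 and 6.16 on days 16 and 21. Npy, which encodes neuropeptide Y, rose by 2.65 (SE 0.35), from 5.90 and 6.75 to 8.83 and 9.11, and lay at 7.22 and 7.18 on the late Dox arrays. AA467197 rose by 2.12 (SE 0.23) and Alox12e, a lipoxygenase of the epidermis, by 1.59 (SE 0.21). Both were back below the midpoint between the groups on days 16 and 21 and in both iPS arrays. Lipm, a lipase of the epidermis, rose by 2.22 (SE 0.26), from 5.60 and 5.58 to 7.48 and 8.15, and went on to 9.22 on day 21 before it stood at 4.26 and 4.23 in iPS cells. The 4 clusters called lower have no symbol in the platform annotation, and their differences ran from -1.51 to -2.48.

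The gap between the groups is the distance from the nearer early array to the nearer later array. Among genes named by the rule, Lcn2, a secreted protein that binds iron carriers of bacteria, had the widest upward gap: it was at 4.96 and 6.91 early and at 12.30 and 11.08 later, a difference of 5.75 (SE 1.10) with a limma adjusted p = 0.133. On days 16 and 21 it was at 5.20 and 5.54. Saa3, an acute phase serum amyloid, stood at 3.84 and 5.43 and then at 10.13 and 8.41. The other named genes among the 15 widest upward gaps were Elf5, Bex1, Epcam, Cldn6, Prss8, Rab25, Dkkl1, Clec4a1, Slc2a3, Mal2, Kcnk1, Scel and Krt18. Rab25, a small GTPase of epithelial vesicle traffic, stood at 4.68 and 7.26 and then at 10.00 and 10.24. Mal2, a protein of transcytosis, was at 6.71 and 7.64 and then at 10.10 and 10.15. Scel, which encodes sciellin of the cornified envelope, was at 6.14 and 6.39 and then at 8.80 and 10.56. Scel was at 4.43 and 4.65 in iPS cells, whereas the potassium channel gene Kcnk1 went from 6.12 and 6.52 to 8.95 and 9.86 and was still at 10.49 and 9.26 there.

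**Figure D1:**
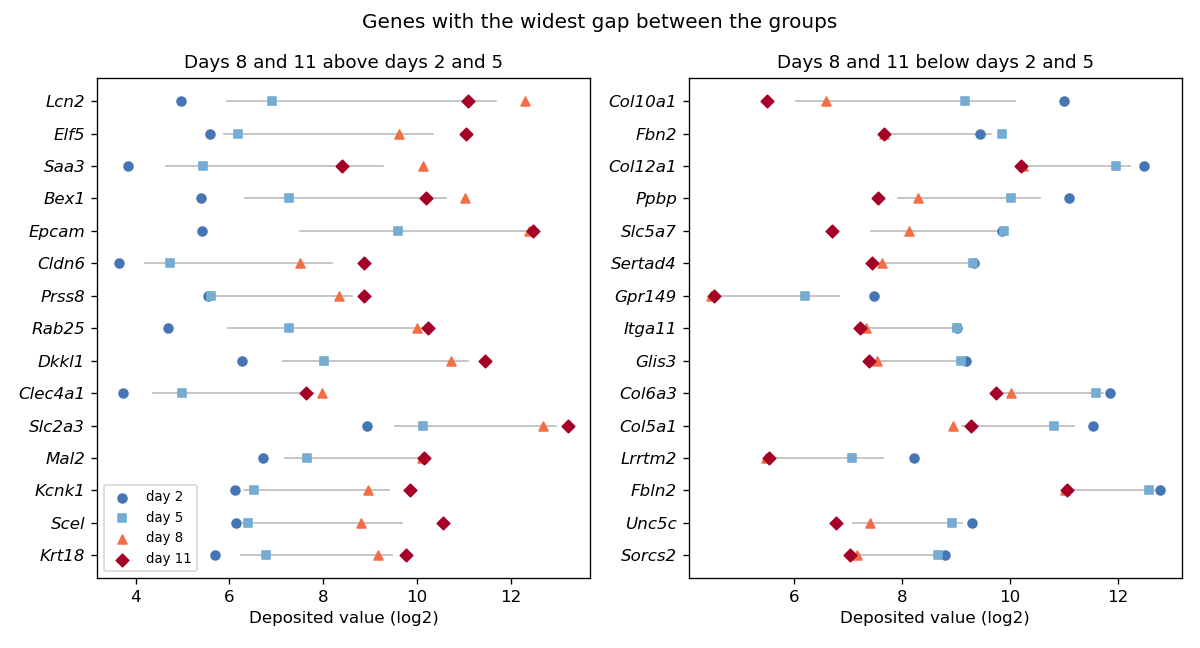
Deposited log2 values of the 15 genes with the widest gap in each direction, on days 2 (circle), 5 (square), 8 (triangle) and 11 (diamond); the grey line joins the means of the groups. The symbols of days 8 and 11 lie on the same side of both early days in every row, since the rule chose them so, and day 5 lies between day 2 and the later days for Epcam (9.59) but beside day 2 for Prss8 (5.60).

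Among genes named by the rule, the 3 widest downward gaps were those of Col10a1, Fbn2 and Col12a1. Col10a1, a short-chain collagen, was at 11.01 and 9.17 early and at 6.60 and 5.50 later. Fbn2, a fibrillin of elastic microfibrils, was at 9.45 and 9.86 and then at 7.68 on both later arrays. Col12a1 stood at 12.48 and 11.96 and then at 10.24 and 10.21, and the other matrix and adhesion genes were Col6a3, Col5a1, Fbln2 and the collagen-binding integrin gene Itga11. The remaining genes were the chemokine gene Ppbp, the choline transporter gene Slc5a7, Sertad4, Gpr149, the zinc finger gene Glis3, Lrrtm2, the netrin receptor gene Unc5c and Sorcs2. None of these 15 passed the test, with limma adjusted p from 0.174 for Sorcs2 to 0.484 for Ppbp.

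Most epithelial genes lay higher on days 8 and 11. Of 36 measured, 32 separated upward and 1 downward, against 3.43% and 6.30% of all clusters, and 1 of them, Cldn6, was called by limma. The median difference of the list was 2.61, with 35 of 36 genes above 0. Epcam, an adhesion protein of epithelial and pluripotent cells, was at 5.42 on day 2, 9.59 on day 5, 12.39 on day 8 and 12.48 on day 11. Cldn4, a claudin, was at 6.32 and 9.50 and then at 11.77 and 12.76, and Ocln, which encodes occludin, at 4.43 and 7.73 and then at 9.68 and 9.83. Esrp1, a splicing regulator of epithelial isoforms, was at 4.84 and 7.72 and then at 9.96 and 10.91. In each of these 4 genes the day 5 array stood between day 2 and the later days, and 19 of the 32 genes were already over 2-fold higher on day 5 than on day 2. Grhl2, a transcription factor that maintains epithelia, came later: it was at 4.11 and 5.02 and then at 7.21 and 8.67. Cdh1, which encodes E-cadherin, was at 7.56 and 9.74 and then at 10.86 and 11.99. The gene that separated downward was Cdh3, which encodes P-cadherin, from 8.59 and 8.74 to 7.35 and 6.91. Of the 32 genes, 30 were higher on day 11 than on day 8. On days 16 and 21 and in both iPS arrays 14 stayed above the midpoint. Another 9 stayed above it on days 16 and 21 and were below it in both iPS arrays. Dsc2, a desmosomal cadherin, was among the latter, at 11.30 and 10.54 on days 16 and 21 and at 6.58 and 6.87 in iPS cells.

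The promoters of Epcam and Cldn4, which have the largest differences of the list, and of the called gene Cldn6 are shown because they hold a 6-base E-box that Snail and Zeb repressors are known to bind. The sequences are from RefSeq on GRCm38.p6, from 250 bases before to 50 after the start of the gene, on the strand of the gene, 5′ to 3′, with CACCTG or its reverse complement CAGGTG in capitals. Epcam lies at chr17:87635729-87636028 on the plus strand, Cldn4 at chr5:134946885-134947184 on the minus strand and Cldn6 at chr17:23679115-23679414 on the plus strand.
Epcam: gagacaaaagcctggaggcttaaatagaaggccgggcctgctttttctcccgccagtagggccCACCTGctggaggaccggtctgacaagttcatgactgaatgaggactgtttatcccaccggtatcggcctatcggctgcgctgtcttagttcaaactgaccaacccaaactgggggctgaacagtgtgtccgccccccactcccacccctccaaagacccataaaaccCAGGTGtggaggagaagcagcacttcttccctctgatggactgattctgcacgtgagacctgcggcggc
Cldn4: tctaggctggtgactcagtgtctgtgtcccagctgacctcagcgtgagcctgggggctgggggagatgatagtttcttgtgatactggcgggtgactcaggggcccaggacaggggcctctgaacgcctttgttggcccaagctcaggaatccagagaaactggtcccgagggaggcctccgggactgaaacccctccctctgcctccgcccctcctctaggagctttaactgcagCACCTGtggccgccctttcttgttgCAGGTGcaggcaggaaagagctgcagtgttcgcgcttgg
Cldn6: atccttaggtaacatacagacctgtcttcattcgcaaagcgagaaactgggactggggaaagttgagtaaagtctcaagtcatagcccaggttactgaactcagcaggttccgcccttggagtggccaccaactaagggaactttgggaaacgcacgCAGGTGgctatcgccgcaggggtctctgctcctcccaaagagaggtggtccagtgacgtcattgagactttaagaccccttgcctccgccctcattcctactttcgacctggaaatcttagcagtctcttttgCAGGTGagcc
Each of the 3 windows holds the 6 bases at 2 positions. Of the 32 epithelial genes that separated upward, 20 are in the promoter table and 18 of them (90.0%) hold CACCTG or CAGGTG in this window, against 22.6% of the 27025 genes of the table and 20.2% of its 32851 promoters. Over all 36 measured epithelial genes, separated or not, 18 of the 22 in the table (81.8%) hold it. Among all measured genes with a promoter in the table the share was 22.1%. It was 35.5% (161 of 454) for all genes that separated upward, 33.1% (140 of 423) for those outside the epithelial and interferon lists, and 17.1% (69 of 403) for those that separated downward. It was 40.6% (13 of 32) in the pluripotency list, 33.3% (5 of 15) in the keratinocyte list and 14.8% (4 of 27) in the mesenchymal list. The motif AACCNGTT of Grainyhead-like factors, searched on both strands, was in 1 of the 20, against 2.35% of genes. A match is letters in a window and not a measured site.

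The repressors known for that E-box stood lower on the later arrays. Whether their levels bear on the epithelial genes was not tested. Snai2, which encodes Slug, was at 10.97 and 10.99 early and at 10.25 and 9.07 later, and Zeb1 was at 9.78 and 10.22 and then at 9.17 and 8.75. Zeb2 was at 10.08 and 9.83 and then at 9.22 and 8.85. In all 3 the later arrays lay below the early ones, for Zeb2 with means under 2-fold apart, and none passed the test. Snai1, which encodes Snail, was at 8.45 and 8.26 and then at 7.44 and 8.17, also below the early arrays and under 2-fold. On day 21 Zeb1 was at 7.78, Zeb2 at 7.70 and Snai2 at 7.82. In secondary iPS cells all 3 stood above that, at 8.27, 8.31 and 9.17, and in primary iPS cells below it, at 6.10, 6.02 and 5.55.

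Of 43 mesenchymal and matrix genes measured, 16 (37.2%, against 6.30% of all clusters) separated downward and 0 upward. None passed the test, and the median difference was -0.84 with 4 above 0. Tnc, which encodes tenascin C, was at 12.89 and 11.37 early and at 9.62 and 10.51 later. Cdh2, which encodes N-cadherin, was at 11.12 and 10.02 and then at 8.50 and 8.87. Col5a1 was at 11.54 and 10.83 and then at 8.94 and 9.28, and Col6a3 at 11.85 and 11.60 and then at 10.03 and 9.74. The fibroblast collagen Col1a1 stood at 11.95 and 12.40 later, below both early values. Of the 16 genes, 14 stayed below the midpoint on days 16 and 21 and in both iPS arrays. Lum, a small proteoglycan, went the other way, from 9.89 and 12.27 to 12.97 and 11.53, with groups that overlap. Over the list, the median stood 0.63 below the early mean on day 8, 0.99 below on day 11, 1.33 below on day 16 and 1.97 below on day 21.

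Smooth muscle contractile genes, which mark activated fibroblasts, lay lower throughout. Of 16 measured, 9 (56.2%, against 6.30% of all clusters) separated downward and 0 upward. All 16 differences were below 0, with a median of -1.18. Cnn1, which encodes calponin, was at 11.22 and 8.59 early and at 6.25 and 7.40 later, a difference of -3.08 (SE 1.14 in the fit) that did not pass the test. Tagln, which encodes transgelin, was at 13.03 and 11.76 and then at 9.56 and 11.02, and Acta2, smooth muscle actin, at 13.65 and 13.01 and then at 12.36 and 12.07. Of the 9 genes, 7 were already over 2-fold lower on day 5 than on day 2. Without day 2 only 3 separated and the median was -0.51. Day 16 stood above both later days for Cnn1, at 9.53, and for Tagln, at 11.93.

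TGF-beta signalling is known to hold cells in the mesenchymal state. Of its 22 genes 6 (27.3%, against 6.30% of all clusters) separated downward and 0 upward, with a median of -0.54 (-0.87 without day 5). The ligand genes among them were Tgfb2 and Tgfb3 and the activin chain gene Inhba. Tgfb3 was at 10.88 and 10.53 early and at 9.55 and 8.87 later, and Inhba at 12.04 and 9.66 and then at 8.67 and 9.14. The latent binding protein genes Ltbp2 and Ltbp3 and the target gene Pmepa1 were the others. In BMP signalling 4 of 22 genes (18.2%, against 6.30% of all clusters) separated downward and 0 upward, with a median of -0.45. They were the ligand gene Bmp4, the receptor gene Bmpr1b, the signal transducer gene Smad9 and the protease gene Bmp1. Bmp4 was at 9.60 and 9.51 early and at 8.56 and 7.39 later. None of these genes passed the test.

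**Figure D2:**
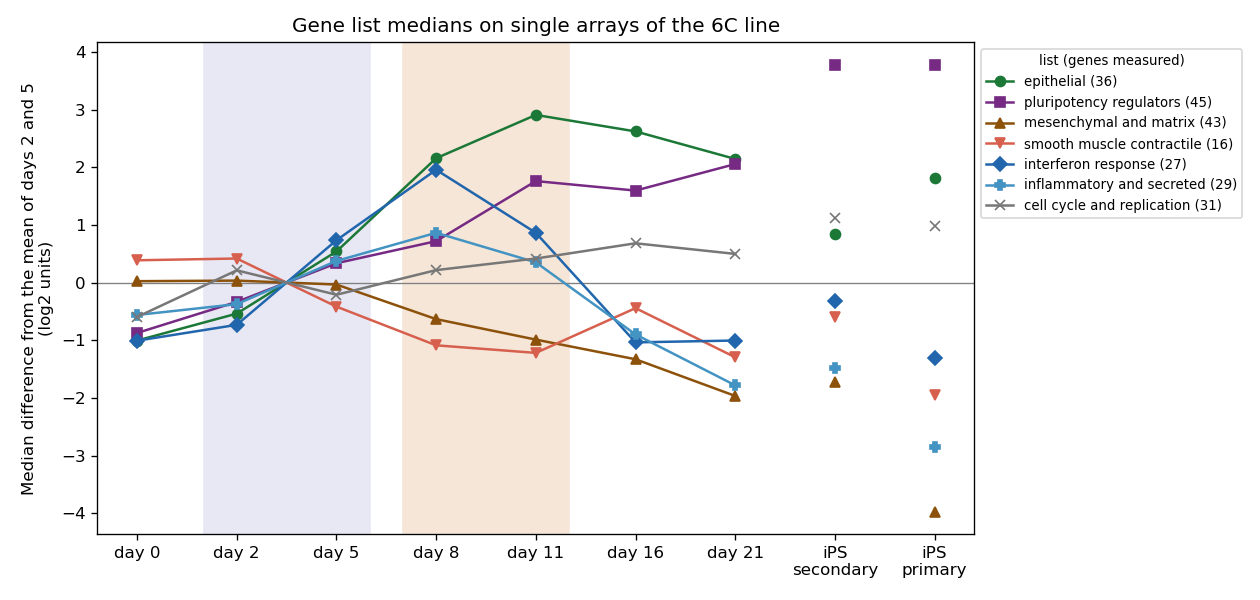
Median over the genes of 7 lists of the difference from the mean of days 2 and 5, in log2 units, on single arrays of the 6C line, with the early days shaded blue, the later days shaded orange and the iPS arrays as separate points. The epithelial median lay at 2.16 and 2.91 on days 8 and 11, the interferon median was highest on day 8, at 1.96, and lay at -1.04 on day 16, and the mesenchymal median lay lower on each successive array from day 5 to day 21.

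Pluripotency genes were split. Of 45 measured genes of this list, which holds regulators and markers, 22 (48.9%, against 3.43% of all clusters) separated upward and 0 downward. The median difference was 1.12, but 1 gene, Slc2a3, passed the test. The median was 1.76 without day 8 and 0.72 without day 11. Nanog, a core transcription factor, was at 5.81 on day 2, 7.75 on day 5, 10.12 on day 8 and 10.69 on day 11. Nr0b1, which encodes the nuclear receptor Dax1, was at 5.85 and 10.12 and then at 12.09 and 11.61. Tfcp2l1, a transcription factor of naive stem cells, was at 5.29 and 8.35 and then at 9.57 and 10.79, and Bex1 was at 5.38 and 7.26 and then at 11.03 and 10.20. Each of these 4 genes was well above day 2 by day 5, as were 15 of the 22 by over 2-fold. Esrrb, an orphan nuclear receptor of the naive network, was different: it was level at 4.99 and 4.97 early, at 6.53 on day 8 and at 8.92 on day 11. Utf1, chosen like the genes of the next sentences after its values were seen, was at 4.71 and 5.98 and then at 6.88 and 8.67. Sall4, another transcription factor of the network, was at 6.11 and 7.61 and then at 8.76 and 10.11, and Dnmt3b, a de novo DNA methyltransferase, at 6.22 and 6.67 and then at 7.81 and 8.91. Day 11 was above day 8 for 20 of the 22 genes, the exceptions being Bex1 and Nr0b1. On days 16 and 21 and in both iPS arrays 21 of them stayed above the midpoint. Lists share members: of the 22, Cdh1, Epcam, Slc2a3, Mybl2, Tfap2c, Dnmt3b, Jarid2 and Phc1 are also counted in other lists.

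The other 23 genes of the pluripotency list did not separate, and 16 of these stood over 2-fold above the early mean in both iPS arrays. For 10 of the 23, day 21 stood that far above it, and for 9, day 16. Sox2 was at 6.46 and 6.35 early, 6.34 and 6.98 on days 8 and 11, 7.48 and 9.45 on days 16 and 21, and 13.03 and 12.63 in iPS cells. Dppa2 stood at 1.69 and 2.69 early and at 1.70 and 2.22 later, and Lin28a, an RNA-binding protein gene, at 5.94 and 5.92 and then at 6.64 and 6.41. In secondary iPS cells these 2 genes were at 8.12 and 11.44. Dnmt3l, a cofactor of de novo methylation, was at 4.83 and 5.14, then at 5.49 and 5.78, then at 6.99 on day 16 and 8.78 on day 21. Dppa4 lay between the classes, at 4.22 and 2.91 early, 3.92 on day 8 and 6.22 on day 11.

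**Figure D3:**
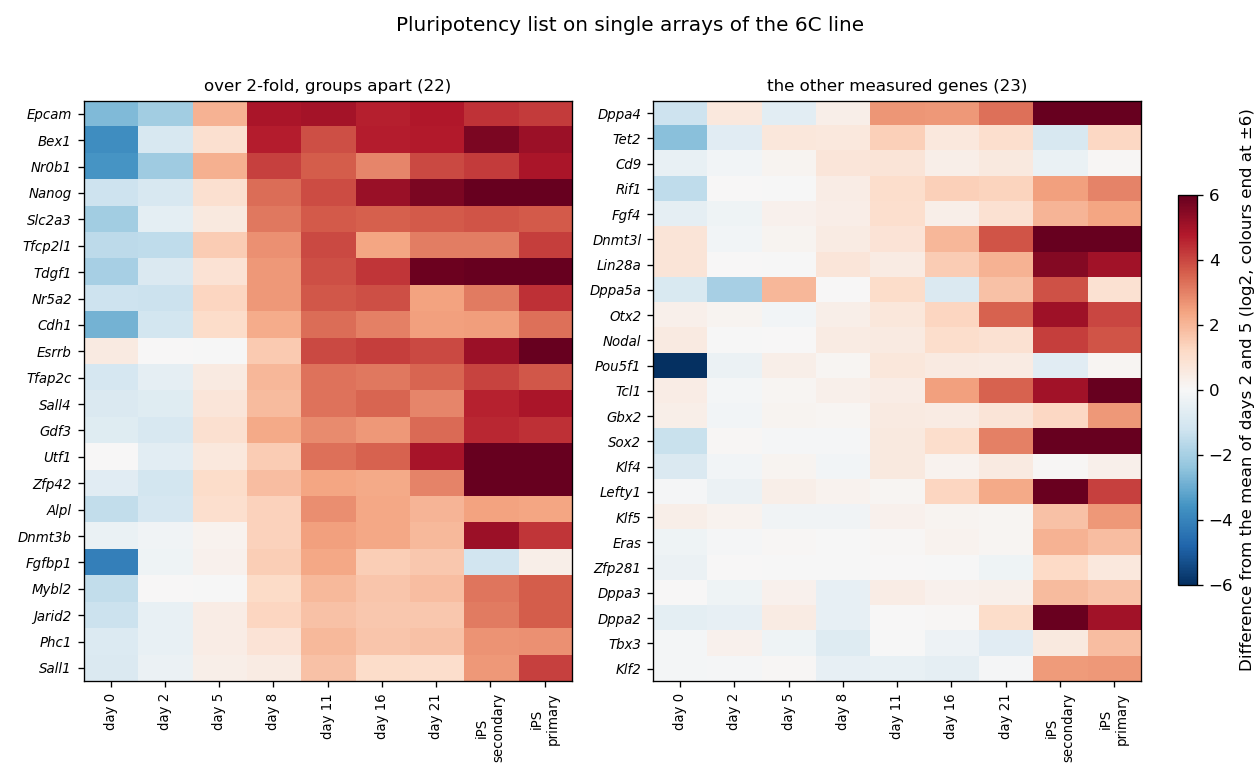
Heat map of the 45 measured genes of the pluripotency list on the 9 arrays of the 6C line, as the difference from the mean of days 2 and 5 in log2 units (red above, blue below, colours ending at 6 units), with the 22 genes that separated upward at left and the other 23 at right. At left the colour deepens from day 8 for most genes, and at right it is pale on days 8 and 11 and deep in the iPS arrays for genes such as Sox2 and Dppa2.

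No difference in the clusters of the reprogramming factors passed the test. Pou5f1, which encodes Oct4, was at 12.6 and 13.28 early and at 13.04 and 13.59 later, and Klf4 at 9.27 and 9.56 and then at 9.27 and 10.02. Myc was at 11.15 and 11.20 and then at 10.77 and 11.49. In each, the groups overlapped, and limma adjusted p-values for these 3 and Sox2 lay between 0.884 and 0.994. The fitted differences were 0.39 (SE 0.53) for Pou5f1, 0.25 (SE 0.84) for Sox2, 0.23 (SE 0.37) for Klf4 and -0.04 (SE 0.40) for Myc. The 95% interval of the difference was -0.82 to 1.60 for Pou5f1, -1.66 to 2.16 for Sox2, -0.62 to 1.07 for Klf4 and -0.95 to 0.88 for Myc. Whether the probes read the inserted factors was not analysed here.

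Interferon response genes mostly stood highest on day 8. Of 27 measured, 15 (55.6%, against 3.43% of all clusters) separated upward and 0 downward. None passed the test, and the median difference was 1.52, with 25 above 0. Oas2, a sensor of double-stranded RNA, was at 4.88 and 6.96 early and at 9.62 and 9.28 later. Irf7, a transcription factor that amplifies the response, was at 6.63 and 8.76 and then at 10.59 and 9.76. Cxcl10, a chemokine induced by interferon, was at 6.18 and 7.74 and then at 10.42 and 8.16, and Gbp3, a guanylate-binding protein, at 5.89 and 8.54 and then at 10.85 and 8.97. These 4 genes stood higher on each array from day 2 to day 8 and lower again on day 11. Day 8 exceeded day 11 for 26 of the 27 genes, and 24 had their highest value of days 0 to 21 on day 8. The list lay 1.96 above the early mean on day 8, 0.86 on day 11 and -1.04 on day 16. Of the 15 genes, 12 were below the midpoint on days 16 and 21 and in both iPS arrays. Without day 5 or without day 11, 23 separated, against 6.06% and 4.33% of all clusters. Without day 2, 10 separated, against 4.52% of all clusters, and the median was 0.68. Day 8 was alone in its run among these 4 arrays, and within the run of days 2, 5 and 11 the count was 11 and the median 0.86.

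The promoters of Cxcl10 and Trim30a, which have large differences and hold it, are shown with the motif GAAANNGAAA of the interferon-stimulated response element, or its reverse complement TTTCNNTTTC, in capitals. They are from RefSeq on GRCm38.p6 with the same window and direction as above. Cxcl10 lies at chr5:92348840-92349139 and Trim30a, an interferon-inducible tripartite motif gene, at chr7:104465144-104465443, both on the minus strand.
Cxcl10: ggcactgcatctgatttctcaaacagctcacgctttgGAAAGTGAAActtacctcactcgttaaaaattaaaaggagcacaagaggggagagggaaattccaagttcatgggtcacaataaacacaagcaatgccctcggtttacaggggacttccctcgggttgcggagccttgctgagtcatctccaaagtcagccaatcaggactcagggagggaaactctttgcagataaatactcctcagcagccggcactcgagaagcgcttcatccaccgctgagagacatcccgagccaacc
Trim30a: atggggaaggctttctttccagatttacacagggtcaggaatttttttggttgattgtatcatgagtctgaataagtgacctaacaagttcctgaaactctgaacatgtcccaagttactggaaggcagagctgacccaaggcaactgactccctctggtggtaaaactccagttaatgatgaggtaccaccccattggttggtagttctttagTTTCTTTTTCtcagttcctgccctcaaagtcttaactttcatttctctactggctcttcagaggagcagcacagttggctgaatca
The motif begins at position -213 from the start of Cxcl10 and at -36 from that of Trim30a. Of the 15 interferon genes that separated upward, 11 are in the promoter table. Of these, 6 (54.5%) hold the motif, against 3.99% of the genes of the table and 3.44% of its promoters. The share was similar over all 27 measured interferon genes, where 11 of the 21 in the table (52.4%) hold it. Of the 454 genes in the table that separated upward, 29 (6.39%) hold it. Trim30a itself was at 4.72 and 6.80 early and at 8.98 and 8.12 later, and was at 4.87 on day 16.

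Of 29 genes of inflammatory and secreted proteins, 8 (27.6%, against 3.43% of all clusters) separated upward and 0 downward. The median was 0.63 (0.37 without day 2 and 0.35 without day 8). The 8 were Lcn2, Saa3, Cfb, Il1a, Ccl9, Il33, Ccl5 and Cxcl2. Cfb, which encodes complement factor B, was at 4.96 and 5.77 early and at 7.76 and 7.04 later. Il1a, the cytokine interleukin 1 alpha, was at 4.37 and 5.21 and then at 6.77 and 6.62, and Ccl9, a chemokine, at 7.29 and 8.83 and then at 9.83 and 9.94. Of the 8, 7 were back below the midpoint on days 16 and 21 and in both iPS arrays, Saa3 being the exception, with 7.06 on day 21. Of 12 antigen presentation genes 1 (8.33%, against 3.43% of all clusters) separated upward (6 without day 5, 3 without day 11 and 2 without day 8). It was the immunoproteasome gene Psmb8, also counted in the interferon list.

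Markers of macrophages and blood moved with these genes, and their part in them was not tested. All 17 measured lay above 0, with a median of 0.98, and 3 (17.6%, against 3.43% of all clusters) separated upward. These were the lysosomal gene Cd68, the Fc receptor gene Fcgr3 and Laptm5. Without day 5 there were 13, against 6.06% of all clusters, and without day 11 there were 9, against 4.33%. The linear values of all 17 summed to 1356 and 4238 on days 2 and 5. The sum was 7425 and 5872 on days 8 and 11, and 3730 on day 16. It was 4535 on day 21, and 1896 and 4174 in secondary and primary iPS cells. Laptm5 stood at 11.69 on day 21 and 11.48 in primary iPS cells. On those 2 arrays Ptprc was at 4.02 and 4.09, and Adgre1 at 4.14 and 4.16, so the late sums did not follow these markers. Ctss, which encodes cathepsin S, was at 6.34 and 8.56 early and at 10.56 and 8.33 later, with groups that overlap. Of the defining markers, Ptprc was at 4.97 and 5.63 and then at 6.15 and 5.26, Csf1r at 6.44 and 7.24 and then at 7.73 and 7.18, and Adgre1 at 5.10 and 6.77 and then at 7.91 and 6.68. These 3 overlapped between the groups and were highest on day 8. The median of the list was 0.33 without day 2 and 0.50 without day 8.

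**Figure D4:**
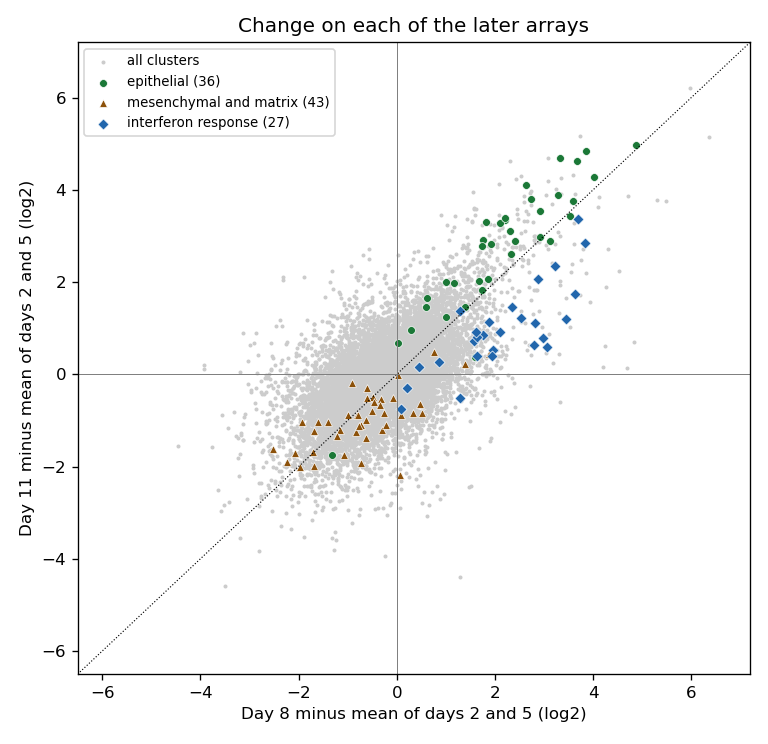
Difference of day 8 (horizontal axis) and of day 11 (vertical axis) from the mean of days 2 and 5, in log2 units, for all 23332 clusters (grey) and the genes of 3 lists, with the dotted line marking equality. Epithelial genes lie mostly above the line, interferon genes below it (26 of 27 higher on day 8), and mesenchymal genes mostly to the lower left.

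Other lists covered genes of other lineages. Of 23 keratinocyte and cornified envelope genes 8 (34.8%) separated upward and 1 (4.35%) downward, against 3.43% and 6.30% of all clusters. The median was 0.73. Sprr1a, a cornified envelope precursor, was at 4.81 and 8.03 early and at 11.73 and 10.20 later, and was at 6.34 and 5.50 in iPS cells. Kdf1 was at 5.59 and 7.06 and then at 8.75 and 9.09, and Sfn, which encodes 14-3-3 sigma, at 9.01 and 9.58 and then at 11.41 and 11.07. Krt17, a keratin of injured and appendage epidermis, was at 8.68 and 9.88 and then at 10.85 and 11.51, whereas Krt14, a keratin of basal cells, was at 9.97 and 9.31 and then at 8.37 and 8.34. Of 12 trophoblast genes 3 (25%, against 3.43% of all clusters) separated upward, with a median of 0.27. Without day 5 there were 5, against 6.06% of all clusters. The 3 were Elf5, Plet1 and Tfap2c. The surface protein gene Plet1 was at 5.65 and 6.69 and then at 8.77 and 9.50. Tfap2c, a transcription factor also counted in the pluripotency list, was at 5.64 and 6.70 and then at 8.16 and 9.41. The remaining 9 trophoblast genes, Cdx2 and Eomes among them, did not separate.

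Neural genes were split, with 2 of 18 upward and 2 downward (1 and 1 without day 2) and a median of 0.13. Each direction held 11.1% of the list, against 3.43% and 6.30% of all clusters. Mapt, which encodes tau, was at 5.51 and 7.23 early and at 8.11 and 9.13 later, and Ncam1 at 11.38 and 10.52 and then at 9.12 and 8.77. Pax6 was the other upward and Nes the other downward gene. Of 17 endoderm genes 2 (11.8%, against 6.30% of all clusters) separated downward, the basement membrane collagens Col4a1 and Col4a2, with a median of 0.02. Without day 2 none separated, without day 8 there was 1 downward, and without day 5 or day 11 there were 2 in each direction. Of 18 endothelial genes 1 (5.56%, against 6.30% of all clusters), the transcription factor gene Erg, separated downward, with a median of 0.03. Without day 5 there were 4 downward and 1 upward, and without day 11 there was 1 each way.

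Among 14 genes of glycolysis and glucose uptake 3 (21.4%, against 3.43% of all clusters) separated upward and 0 downward. The median was 0.17 (0.37 without day 5). The 3 were both transporter genes, Slc2a3 and Slc2a1, and Aldoc, an aldolase. Slc2a1, which encodes GLUT1, was at 11.53 and 11.20 early and at 12.87 and 12.83 later, and it was at 12.35 and 12.49 on days 16 and 21 and at 12.91 and 12.96 in iPS cells. Aldoc was at 6.50 and 9.10 and then at 11.12 and 10.80. None of 16 genes of oxidative phosphorylation separated, with a median of 0.09. Of 31 cell cycle and replication genes 1 separated upward (3.23%, against 3.43% of all clusters), the transcription factor gene Mybl2, at 8.55 and 8.51 and then at 9.68 and 10.49. The list's median was 0.31 (0.54 without day 2 and 0.08 without day 5) and lay at 0.22 on day 8 and 0.42 on day 11. Of 18 DNA repair genes none separated, with a median of 0.32. Without day 5 there were 3 of them downward, without day 11 there were 2, and without day 2 there was 1 upward. Of 19 genes of p53 and CDK inhibitors 1 (5.26%, against 3.43% of all clusters) separated upward, Perp, a p53 target in epithelia, with a median of -0.07. Without day 8 there were 2 upward and 1 downward, and without day 11 there were 0 and 1.

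Of 32 chromatin genes 3 (9.38%, against 3.43% of all clusters) separated upward (6 without day 5 and 5 without day 8), with a median of 0.28. They were Dnmt3b and the Polycomb genes Jarid2, at 8.31 and 9.24 early and 10.06 and 10.54 later, and Phc1, at 8.40 and 9.25 and then at 9.63 and 10.75. All 3 are also counted in the pluripotency list. Of 21 germline genes 1 (4.76%, against 3.43% of all clusters) separated upward (3 without day 8 and 2 without day 5), Piwil2, a Piwi protein gene, at 5.14 and 6.36 and then at 8.21 and 9.11. Another 16 germline genes that did not separate stood over 2-fold above the early mean in both iPS arrays. Of 23 Hox genes 3 (13%, against 6.30% of all clusters) separated downward (6 without day 5 and 5 without day 8), with a median of -0.22. Among them was Hoxc8, at 9.29 and 9.63 and then at 8.10 and 7.69. Of 15 imprinted genes 1 (6.67%) separated upward and 3 (20%) downward, against 3.43% and 6.30% of all clusters, with a median of -0.09. Without day 5 there were 2 in each direction, without day 11 there were 1 and 2, and without day 2 or day 8 there were 0 and 4. Dlk1, a Notch ligand-like protein, was at 8.47 and 9.60 and then at 10.60 and 9.93, and the downward genes were Grb10, Igf2r and Plagl1. Igf2r, the clearing receptor for IGF2, was at 11.31 and 11.61 and then at 10.29 and 10.18.

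Days 8 and 11 differed from each other as well. Day 11 was over 2-fold above day 8 for 1626 clusters and below it for 893. Among clusters with a mean of at least 6 these counts were 477 and 307. The arrays come from different runs, and day and run cannot be told apart in this pair. Reg3g, an antimicrobial lectin, had the largest excess on day 8, at 7.48 against 3.34 on day 11, and was at 2.29 and 2.99 early. Apod, which encodes apolipoprotein D, was at 12.64 on day 8 and 9.02 on day 11, Igfbp5 at 9.34 and 5.63, Ogn, a small proteoglycan, at 10.92 and 7.23, and the chemokine Cxcl15 at 9.46 and 5.56. For Igfbp5, day 8 stood near the early values of 9.62 and 9.54, so the lower mean of the later group was that of day 11. In the other direction Dsg3, a desmosomal cadherin of epidermis, was at 7.07 on day 8 and 9.62 on day 11, Esrrb at 6.53 and 8.92, AU018091 at 8.88 and 11.19, Sprr2b at 1.60 and 4.21 and Zc3h3 at 1.17 and 3.95. Dsg3 was level at 6.91 and 7.17 early, so its day 8 value stood between them. Sprr2b, at 3.65 and 1.49 early, and Zc3h3, at 2.39 and 3.32, had low values on every array.

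Successive arrays of the series show how the interval from day 5 to day 8 compared with others, with 1 array a day and no test. By the array names, days 2, 5, 11 and 16 shared 1 run, day 8 lay in another and days 0 and 21 in a further one. The intervals from day 0 to 2, 5 to 8 and 8 to 11 therefore crossed runs, and those from day 2 to 5 and 11 to 16 did not. From day 5 to day 8, 1171 clusters were over 2-fold higher and 2029 lower. From day 2 to day 5 there were 1408 and 1992, from day 8 to day 11 there were 1626 and 893, and from day 11 to day 16 there were 1244 and 1218. From day 0 to day 2 there were 2766 higher and 631 lower, with a median shift of 0.25 over all clusters. Among clusters with a mean of at least 6 the counts were 453 higher and 734 lower from day 5 to day 8. They were 666 and 457 from day 2 to day 5, where the larger count changed sides. They were 477 and 307 from day 8 to day 11, and 260 and 410 from day 11 to day 16. The interval from day 0 to day 2 had 1422 and 123. Among the 9 named calls, the largest steps from day 5 to day 8 were those of Elf5 (3.44), Cldn6 (2.78), Prss8 (2.75), Slc2a3 (2.57) and Aox3 (2.30). Of the 801 clusters that separated upward, 301 (37.6%) were already over 2-fold higher on day 5 than on day 2, and of the 1471 that separated downward, 338 (23.0%) were over 2-fold lower.

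Later arrays were placed against the midpoint between the means of the groups, which itself comes from the 4 arrays that chose the clusters. Day 16 and primary iPS cells shared the run of days 2, 5 and 11. Secondary iPS cells shared that of day 8, and day 21 that of day 0. Of the 801 upward clusters, 419 (52.3%) stayed above it on both days 16 and 21, and 190 (23.7%) did so also in both iPS arrays. A further 144 (18.0%) stayed above it on days 16 and 21 and were below it in both iPS arrays, as Elf5, Lipm, Mal2, Scel and Dkkl1 were. On all 4 of these arrays 155 (19.4%) were back below it, as Lcn2, Clec4a1, Npy and Irf7 were. Of the 1471 downward clusters, 764 (51.9%) stayed below the midpoint on days 16 and 21, 554 (37.7%) also in both iPS arrays, 57 (3.87%) were back in both iPS arrays alone and 98 (6.66%) were back on all 4. Untreated cells were not always on the early side. On the day 0 array, 543 (36.9%) of the downward clusters already stood on the side of days 8 and 11, as did 87 (10.9%) of the upward ones. On the parental array, which shared the run of days 2, 5 and 11, these were 328 (22.3%) and 113 (14.1%). The day 0 array had the lowest median of the series, 6.34, and lay in another run.

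**Figure D5:**
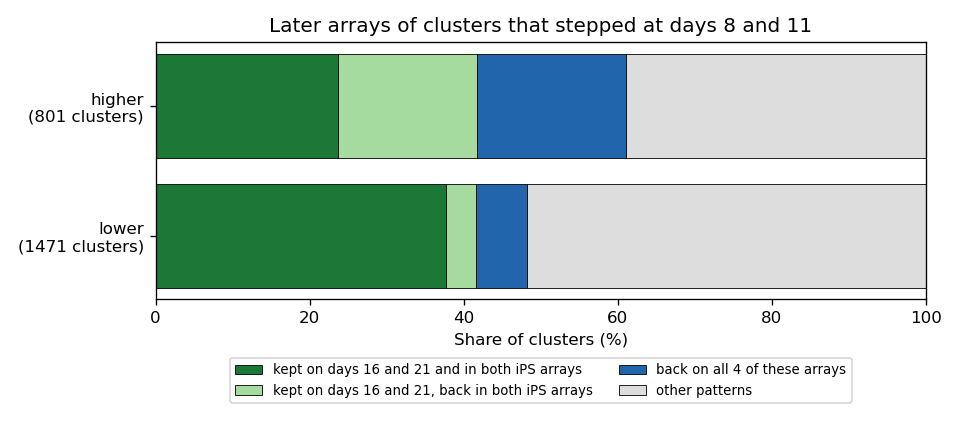
Shares of the 801 clusters that separated upward and the 1471 that separated downward, by where days 16 and 21 and both iPS arrays stood relative to the midpoint between the groups. Clusters kept on all 4 arrays were 23.7% of the upward and 37.7% of the downward ones, and clusters back on all 4 were 19.4% and 6.66%.

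Arrays with no part in the comparison gave a separate reading. In iPS cells against untreated fibroblasts, 2514 clusters (10.8%) were higher and 2658 (11.4%) lower with groups apart and over 2-fold. Of the 801 upward clusters 326 (40.7%) were among the higher and 44 (5.49%) among the lower, and the 326 were 13.0% of the higher list. Of the 1471 downward clusters 558 (37.9%) were among the lower and 26 (1.77%) among the higher, and the 558 were 21.0% of the lower list. In the 1B line, day 5 of Dox was over 2-fold above day 0 for 2215 clusters (9.49%) and below it for 2955 (12.7%), with 1 array each. Of the 801 upward clusters 342 (42.7%) were among the higher, which is 15.4% of that list, and of the 1471 downward ones 603 (41.0%) were among the lower, which is 20.4%.

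The lists differed in how they stood in 1B at its day 5. Of the 32 epithelial genes that separated upward in 6C, 28 were over 2-fold higher there, and Krt18 was lower, at 8.17 on day 0 and 5.70 on day 5. Epcam went from 4.41 to 11.04 and Rab25 from 4.55 to 9.13. Of the 22 pluripotency genes 17 were over 2-fold higher, with Bex1 going from 5.30 to 10.87. Of the 16 mesenchymal genes all 16 were over 2-fold lower, with Col6a3 going from 11.15 to 6.87. Of the 15 interferon genes 1 was over 2-fold higher and 4 lower, and of the 8 inflammatory genes 0 were higher and 1 lower. Lcn2 stood at 5.58 and 4.80, and Elf5 at 5.31 and 6.44. Esrrb, at 5.14 and 5.16, was as low at day 5 of 1B as at day 5 of 6C.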

How the data were processed

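RNA of 13 mouse cultures was labelled and hybridised to Affymetrix mouse exon arrays. The authors deposited 1 log2 value for each transcript cluster and array. The submitters' processing notes name RMA, Affymetrix Expression Console and the mm9 build, without versions. RMA subtracts background, equalises the arrays and summarises probes, which compresses low values. No source used here states the base of the logarithm, and the range of values fits base 2. Precision is limited by how few arrays there are.

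Of 23332 clusters, 14996 had 1 symbol in the platform annotation, 1019 several and 7317 none. Symbols were updated by gene identifier for 14941, and clusters with 1 symbol were named. For a gene with several clusters, that with the highest mean was used.

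limma 3.58.1 in R 4.3.3 was fitted to 13 arrays in 7 groups (6 residual and 2.84 prior degrees of freedom), without covariates. No labels name separate cultures of a condition. Genes were named by rule: called genes whose groups do not overlap, or, with fewer than 10 called in a direction, the 15 widest gaps; up to 6 members per list by size of difference; the reprogramming factors; the 5 largest differences each way between days 8 and 11; and the 5 called clusters with the largest step from day 5 to day 8. RIKEN and predicted names were left out. List members named beyond the rule were chosen after their values were seen. The 25 gene lists, the comparison and the tests were chosen with earlier results of these data known. Promoters were matched by symbol to RefSeq sequences of 250 bases before to 50 after the start. The fit was also run on simulated data with independent noise and no effect of run, cell source or day within a group. Those data could not show how such effects bear on the calls. Alternatives were other scalings, a filter, other fits and thresholds, the run as a block and each array left out.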

Additional observations from a re-analysis of the deposited data

How the results depend on the processing

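The counts of calls were the least stable values. The fit of 13 arrays called 14 clusters higher and 4 lower. By limma it was 18 and 5 with quantile normalization, 25 and 5 with centring, 19 and 0 with a mean of at least 6, 8 and 0 with a trended and robust prior, 14 and 4 with no fold required and 13 and 1 with a fold of at least 4. A polynomial of day of degree 3, as the study's design text names, called 482 and 93. The fit of groups called 0 and 0 with the run as a block, with only the 4 arrays compared and with only the 8 arrays of the 6C series (2645 clusters at an unadjusted p under 0.05 in the last), and 2 and 0 for day 11 alone within 1 run. Leaving out each array gave 0 to 118 higher and 0 to 25 lower. Of the 9 named calls, 9 kept theirs with centring, 8 with quantile normalization, 9 without day 5, 3 with the polynomial, 1 without day 8, and 0 without day 2, without day 11 or with the run as a block. The cause was not tested.

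Separations numbered 962 upward and 1139 downward with quantile normalization, 933 and 1258 with centring, 505 and 610 with a mean of at least 6, where fewer clusters were counted, and 1317 and 1669 for day 11 alone. Leaving out each array gave 1011 to 1415 upward and 1517 to 2652 downward. The list medians named in the report kept their sign with quantile normalization and with centring, except that of p53 and CDK inhibitors, which was 0.01 with quantile normalization. The germline median moved from 0.03 to 0.24 with quantile normalization, 0.70 with the filter and -0.05 without day 2. The endothelial one was -0.35 with the filter. The endoderm one was -0.10 with the filter, -0.17 without day 2 and -0.04 without day 11. The neural one was -0.09 without day 2 and -0.05 without day 11, that of p53 and CDK inhibitors 0.08 without day 5 and 0.20 without day 11, and that of the reprogramming factors -0.11 without day 11. With each of the 4 arrays left out, the median ran from 0.07 to 0.43 for DNA repair, 0.14 to 0.38 for chromatin, -0.37 to -0.07 for Hox, -0.43 to -0.09 for imprinted and 0.30 to 1.01 for antigen presentation genes.

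Some differences changed sign. Myc was 0.023 with centring, 0.318 with the run as a block, 0.271 with the polynomial and 0.325 for day 11 alone. Zc3h3 was 0.301 with the block and 1.10 for day 11 alone, Dppa2 0.155 with the polynomial and 0.027 for day 11 alone, and Lum -0.151 with the block. Ptprc was -0.043 for day 11 alone. With the polynomial Krt14 was 0.76, Cdx2 -0.095 and Cxcl15 0.007. With each of the 4 arrays left out in turn, the range was -0.399 to 0.325 for Myc, -1.681 to 1.10 for Zc3h3, -0.737 to 0.266 for Dppa2, -0.023 to 2.356 for Lum, -0.043 to 0.848 for Ptprc, -2.658 to 1.692 for Cxcl15, -0.97 to 1.642 for Sprr2b, -0.068 to 0.572 for Sox2, -0.147 to 0.604 for Klf4 and -3.065 to 0.627 for Ogn.

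No paired analysis was possible because the labels give no replicate numbers and each day has 1 array. The run could not be a block for separations, which use no fit.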
